A study of Homo sapiens with 6 samples.

Results

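The genes described here are 40 genes of the G2 phase and of mitosis, comprising mitotic kinases and cyclins, kinetochore and checkpoint components, spindle motors and cytokinesis proteins. They were chosen by name, and each was read from its brightest probe set, the one with the highest mean over all arrays. All 40 had a probe set that names a single gene, among 19775 such genes on the array, and all 40 passed the filter on low signal, which left 12735 genes for testing. The cells were RT-112, a line derived from a human bladder cancer, and their RNA was hybridised to 6 Affymetrix oligonucleotide arrays. Cells had received siPPP2R2A_1 (siRNA 1), siPPP2R2A_2 (siRNA 2) or a scramble siRNA, with 2 arrays, A and B, for each. In all 3 groups the siRNA was given at 50 nM with Lipofectamine RNAiMAX to cells plated at 50% confluence, was given again after 24 h, and RNA was isolated 24 h after that. The arrays of a group are described as technical duplicates, so every p-value below measures only the spread between these samples, and the number of arrays limits the precision. Silencing was transient, and both comparisons with scramble share the same 2 scramble arrays.

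PPP2R2A encodes the alpha isoform of B55, a subunit that directs protein phosphatase 2A (PP2A) to its substrates. PP2A-B55 removes phosphates placed by the cyclin-dependent kinase CDK1, and it is held inactive in mitosis by ENSA and ARPP19 once the Greatwall kinase, MASTL, has phosphorylated them. Its return to activity drives mitotic exit. Many genes of G2 and mitosis are transcribed together late in the cell cycle, through promoter elements called CHR and CCAAT boxes, which are bound by MuvB complexes with B-MYB and FOXM1 and by NF-Y. The comparison therefore asked how transcripts of the mitotic machinery stood when a subunit of a mitotic exit phosphatase was depleted.

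The members share promoter elements as well as functions. RefSeq promoter windows of the GRCh38.p14 assembly, from 250 bases before to 50 bases after an annotated start, were found for 33 of the 40 genes, with 43 windows in all. Windows of FOXM1, UBE2C, TTK, BUB3, AURKA, TPX2 and BIRC5 were not used here. The CHR letters TTTGAA, read on either strand, stood in 26 of the 43 windows (60.5%), against 10.7% of the windows of all tested genes. The CCAAT letters, also read on either strand, stood in 31 of the 43 windows (72.1%), against 34.8% for all tested genes. Both stood together in 48.8% of the members' windows and in 4.26% of those of tested genes. In the MKI67 window the last letter of a CHR match was also the first letter of a CCAAT match on the reverse strand. In a list of G1/S and DNA replication genes, 66.7% of 33 windows held CCAAT but 6.06% held the CHR letters. In a list of other mitotic genes outside the 40, 66.7% of 33 windows held the CHR letters, 72.7% held CCAAT and 54.5% held both. A match describes the letters alone and not a bound site. Windows of 4 members are printed below because, by the mean change over both siRNAs, these genes include the highest (KIF4A), the second highest (NDC80), the lowest (MAD2L1) and the one nearest to 0 (NUSAP1). Capitals mark TTTGAA or its reverse complement TTCAAA, and CCAAT or its reverse complement ATTGG.
KIF4A: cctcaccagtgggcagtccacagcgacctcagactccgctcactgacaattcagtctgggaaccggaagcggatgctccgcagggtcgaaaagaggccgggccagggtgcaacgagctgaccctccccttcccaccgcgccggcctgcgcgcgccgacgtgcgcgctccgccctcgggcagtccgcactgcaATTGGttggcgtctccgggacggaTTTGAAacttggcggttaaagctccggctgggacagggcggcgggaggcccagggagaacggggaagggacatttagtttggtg
MAD2L1: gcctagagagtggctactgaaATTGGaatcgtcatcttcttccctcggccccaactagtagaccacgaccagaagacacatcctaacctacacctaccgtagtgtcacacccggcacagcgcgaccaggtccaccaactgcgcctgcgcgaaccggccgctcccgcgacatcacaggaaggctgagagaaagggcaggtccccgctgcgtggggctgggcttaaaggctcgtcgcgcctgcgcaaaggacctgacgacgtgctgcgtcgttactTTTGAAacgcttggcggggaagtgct
NDC80: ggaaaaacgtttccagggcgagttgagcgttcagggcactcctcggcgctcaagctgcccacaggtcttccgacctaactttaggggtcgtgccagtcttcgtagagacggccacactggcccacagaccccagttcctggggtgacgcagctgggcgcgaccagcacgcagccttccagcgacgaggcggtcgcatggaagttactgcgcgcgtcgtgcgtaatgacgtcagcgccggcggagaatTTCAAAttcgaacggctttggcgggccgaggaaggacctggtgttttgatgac
NUSAP1: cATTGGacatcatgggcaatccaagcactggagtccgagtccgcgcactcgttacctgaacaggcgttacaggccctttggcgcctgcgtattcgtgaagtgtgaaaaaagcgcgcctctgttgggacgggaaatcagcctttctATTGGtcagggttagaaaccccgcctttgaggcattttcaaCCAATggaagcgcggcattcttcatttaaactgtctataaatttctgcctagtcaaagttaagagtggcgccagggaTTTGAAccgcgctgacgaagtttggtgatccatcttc
The KIF4A window lies at chrX:70289854-70290153 on the plus strand and holds a CHR match that starts 34 bases before the annotated start, with a CCAAT box upstream of it. The MAD2L1 window lies at chr4:120066799-120067098 on the minus strand, and its CHR match starts 24 bases past the start. The NDC80 window, at chr18:2571307-2571606 on the plus strand, holds a CHR match on the reverse strand, 3 bases before the start, and no CCAAT box. The NUSAP1 window, at chr15:41332631-41332930 on the plus strand, holds a CHR match and 3 CCAAT boxes.

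Silencing was seen on the array itself. PPP2R2A gave signals of 336 and 397 with siRNA 1, 510.0 and 533 with siRNA 2, and 1381 and 1589 with scramble. It fell by a log2 change of -2.02 with siRNA 1 (limma, adjusted p = 0.0403) and of -1.51 with siRNA 2 (adjusted p = 0.0461), although with any 1 of the 6 arrays left out the adjusted p lay between 0.124 and 0.196. Epithelial origin was checked with 14 epithelial and urothelial markers, of which 10, among them EPCAM, CDH1, KRT8, KRT18 and GATA3, were above the filter level on all 6 arrays. Of the 14, 12 passed the filter, and the uroplakin gene UPK1A was among those that did not. The summed signal of these markers was 144469 to 149506 with siRNA 1, 125314 to 132664 with siRNA 2 and 147585 to 152591 with scramble, so it was lowest on both siRNA 2 arrays. Of the markers of other cell types, 2 of 7 for fibroblasts and mesenchyme, 2 of 4 for endothelium and 0 of 4 for leukocytes were above the filter level on all 6 arrays. The fibroblast and mesenchymal sum was 6712 to 7597 with siRNA 1, 5862 to 5896 with siRNA 2 and 5999 to 6335 with scramble. The endothelial sum was 329.6 to 398 with siRNA 1, 321 to 392 with siRNA 2 and 401 to 480.0 with scramble, and the leukocyte sum was 96.0 to 141 with siRNA 1, 86.1 to 147 with siRNA 2 and 151 to 157 with scramble. Both of these sums were lower on all 4 knockdown arrays than on the scramble arrays. The 3' over 5' signal ratio of ACTB, which reflects RNA integrity and labelling, was 6.52 and 7.82 with siRNA 1, 7.47 and 12.4 with siRNA 2, and 5.43 and 5.94 with scramble. The same ratio of GAPDH differed little, at 1.00 and 1.02 with siRNA 1, 1.00 and 0.943 with siRNA 2, and 1.00 and 1.00 with scramble. The part of the marker sums and of these ratios in the results below was not tested.

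None of the 40 mitotic genes passed the test with either siRNA. The test asked for a limma adjusted p under 0.05 over all tested genes together with a change of at least 1.5-fold. With siRNA 1 it called 0 of 40 members, against 0.393% of all tested genes, and with siRNA 2 it called 0 of 40, against 0.597%. With a background this low, a list of 40 would hold few called genes in any case, so the sizes of the changes say more than the count. Missing the threshold does not show that a gene did not change. The extremes of the members' log2 changes were -0.24 (AURKB) and 0.31 (KIF4A) with siRNA 1, and -0.37 (MAD2L1) and 0.35 (KIF4A) with siRNA 2. All 40 estimates lay inside 1.5-fold with both siRNAs, as did 90.8% and 89.1% of all tested genes. The whole 95% interval lay inside 1.5-fold for 39 members with siRNA 1 (97.5%, against 55.7% of all tested genes) and for 35 members with siRNA 2 (87.5%, against 52.8%). CENPA was the exception with siRNA 1, and FOXM1, CENPA, MAD2L1, KIF4A and KIF20A were the exceptions with siRNA 2, so for these a change of 1.5-fold lies within the interval. Because these are bulk samples, fewer cells in G2 or mitosis and less RNA per cell cannot be told apart.

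**Figure D1:**
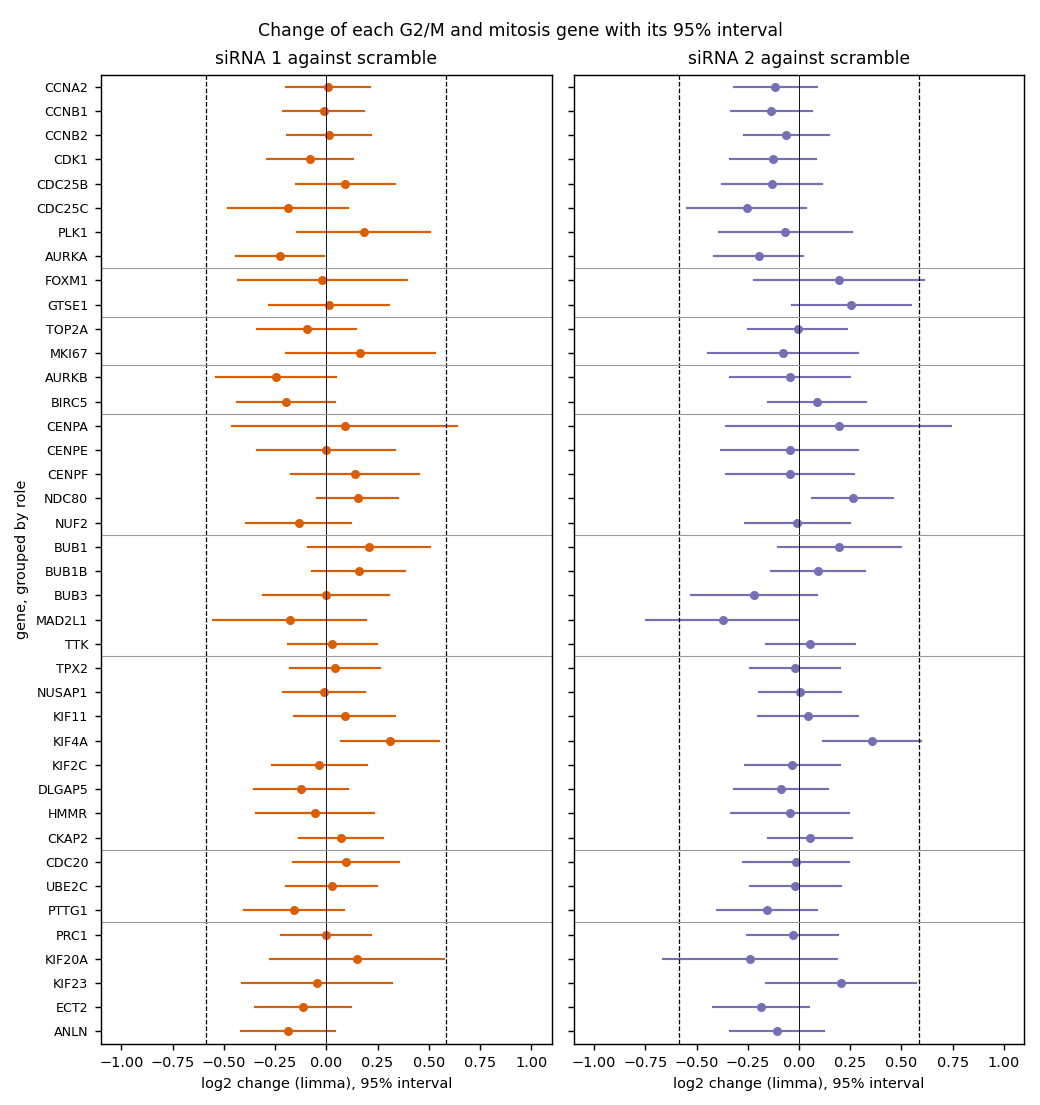
The log2 change of each of the 40 G2/M and mitosis genes with siRNA 1 (left) and siRNA 2 (right) against scramble, from limma over all 6 arrays. Points are estimates, bars are 95% intervals, dashed lines mark 1.5-fold, and genes are grouped by role. All points lie inside the dashed lines, and intervals that cross one belong to CENPA in both panels and to FOXM1, MAD2L1, KIF4A and KIF20A with siRNA 2.

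The members as a group lay close to the scramble level. Their median log2 change was -0.002 with siRNA 1, where 19 of 40 were above 0, and -0.038 with siRNA 2, where 13 were. Over all tested genes the medians were 0.011 and 0.016, with 52.2% and 52.4% above 0. By array, the members' median against the scramble mean was 0.01 and 0.01 on the siRNA 1 arrays and -0.07 and 0.01 on the siRNA 2 arrays, so the lower median with siRNA 2 was that of array A. The scramble arrays themselves differed in the same genes, with array A above array B for 31 of 40 members and a median difference of 0.08. The group shift with siRNA 2, taken between means of 2 arrays, was thus smaller than the difference between the single scramble arrays.

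The members varied less than most genes. The median absolute log2 change was 0.09 with siRNA 1 and 0.09 with siRNA 2, against 0.16 and 0.19 over all tested genes. Their duplicates also lay closer together, with a median absolute difference between arrays A and B of 0.08 with siRNA 1, 0.07 with siRNA 2 and 0.09 with scramble, against 0.14, 0.15 and 0.14 over all tested genes. The members were also brighter, with median signals of 3624 with siRNA 1, 3476 with siRNA 2 and 3516 with scramble, against 739, 742 and 721. The members' median absolute differences were thus 0.09 between siRNA and scramble and 0.07 to 0.09 between duplicates. The former compare means of 2 arrays and the latter single arrays, so they are not like measures. The part of the members' brightness in these differences was not tested.

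**Figure D2:**
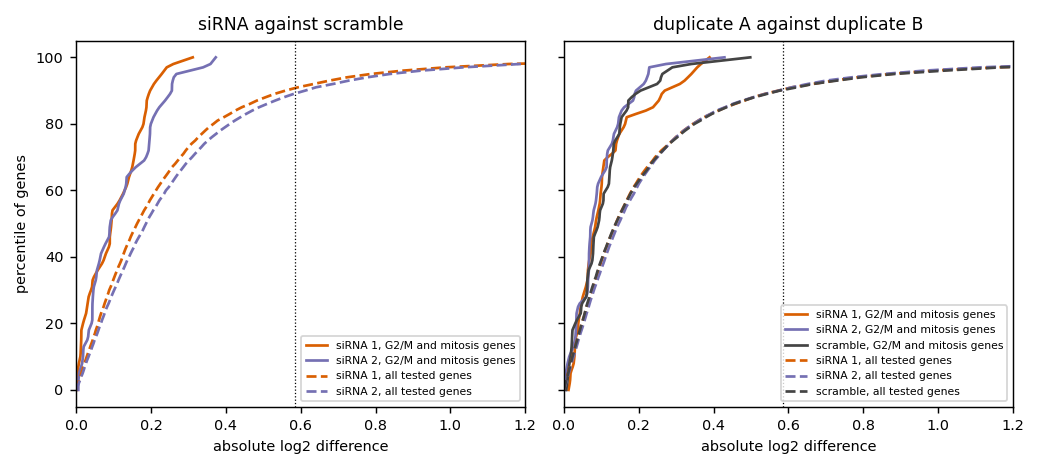
Percentile of genes (vertical axis) against the absolute log2 difference (horizontal axis), for siRNA against scramble on the left and for array A against array B of a group on the right. Solid lines are the 40 G2/M and mitosis genes and dashed lines all 12735 tested genes, and the dotted vertical line marks 1.5-fold. The solid lines rise more steeply in both panels, with a median of 0.09 for both siRNAs on the left and of 0.07 to 0.09 on the right. The left panel compares means of 2 arrays and the right panel single arrays.

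Without adjustment, few members reached a p under 0.05. With siRNA 1 these were 1 higher (KIF4A) and 1 lower (AURKA) of 40, or 2.5% each, against 9.55% higher and 6.65% lower over all tested genes. With siRNA 2 they were 2 higher (KIF4A and NDC80), or 5.0%, against 12.0%, and 0 lower, against 8.76%. With the mean of both siRNAs, limma called 0 of 40 after adjustment, against 0.510% of all genes. Without adjustment, KIF4A and NDC80 were higher there (5.0%, against 11.1%) and AURKA lower (2.5%, against 7.44%). For the brightest probe sets these shares lie below the background in each case.

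Of the 40 genes, 3 had all 4 knockdown arrays above both scramble arrays, namely KIF4A, NDC80 and BUB1 (7.5%, against 14.7% of all tested genes). Another 8 had all 4 knockdown arrays below both scramble arrays, namely CDK1, CDC25C, AURKA, AURKB, DLGAP5, PTTG1, ECT2 and ANLN (20.0%, against 10.6%). The share above was under the background and the share below was over it. With siRNA 1 alone, both arrays were above both scramble arrays for 9 members (22.5%, against 26.7%) and below them for 11 (27.5%, against 22.7%). With siRNA 2 alone these were 5 (12.5%, against 28.4%) and 14 (35.0%, against 24.0%). All of these counts rest on the same 2 scramble arrays, of which A was the higher for most members. None of these 11 genes passed the test.

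**Figure D3:**
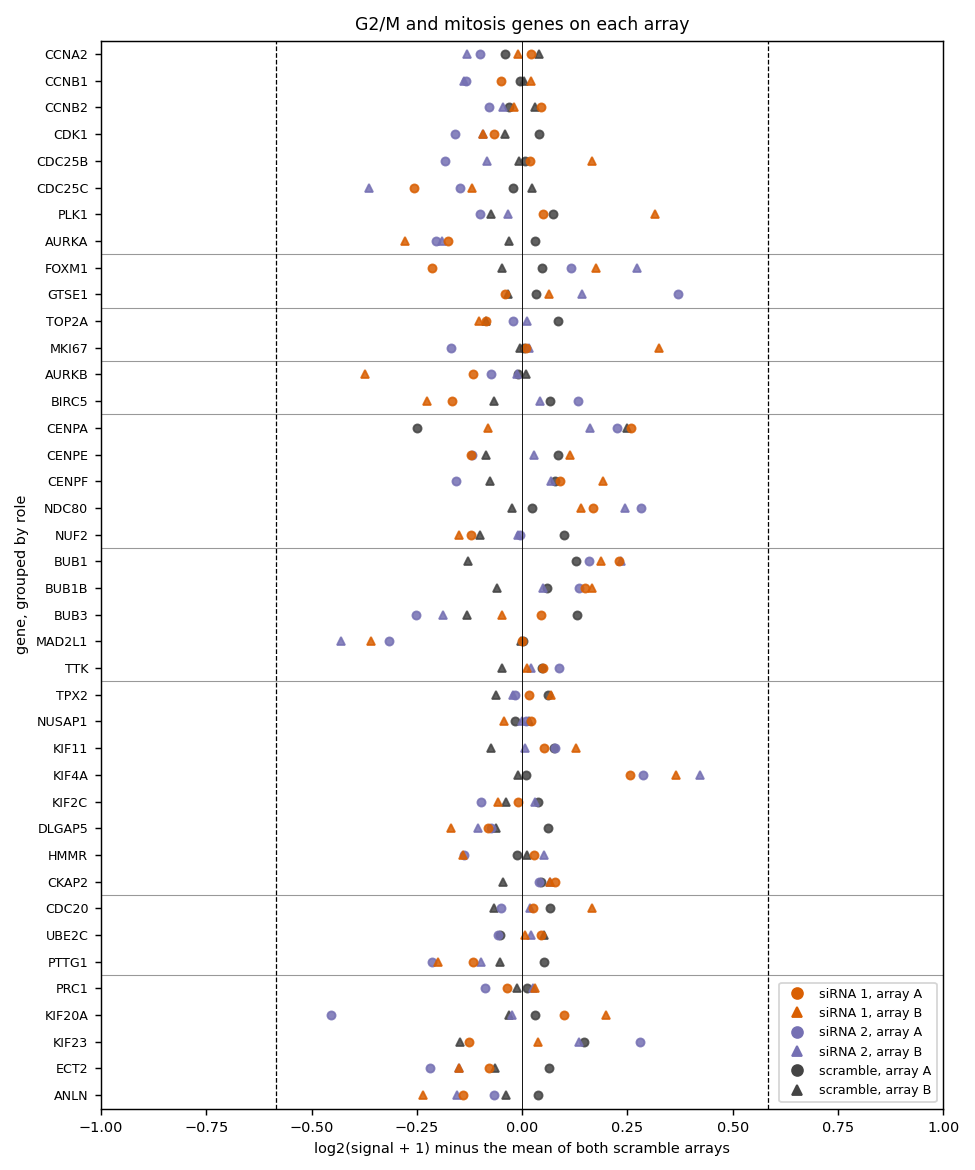
The log2 signal of each of the 40 genes on every array, given as the difference from the mean of both scramble arrays. Colours show siRNA 1, siRNA 2 and scramble, circles array A and triangles array B, and the dashed lines mark 1.5-fold. All points lie inside the dashed lines, KIF4A has all 4 knockdown arrays to the right of scramble, and AURKA has all 4 to the left.

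Mitotic entry is driven by CDK1 with its A- and B-type cyclins, which is switched on by the CDC25 phosphatases and helped by the kinases PLK1 and AURKA. Of these 8 genes none passed the test. With siRNA 2, 0 of the 8 had an estimate above 0, against 52.4% of all tested genes. Their median log2 change was then -0.13, with a range from -0.26 to -0.06. With siRNA 1 the median was 0.00, and 4 of 8 were above 0. AURKA, the kinase of centrosome maturation and spindle assembly, gave signals of 8364 and 7794 with siRNA 1, 8200.1 and 8285 with siRNA 2, and 9661 and 9249 with scramble. Every knockdown array was below both scramble arrays. Its log2 change was -0.23 with siRNA 1 (limma, adjusted p = 0.291) and -0.20 with siRNA 2 (adjusted p = 0.272), a change that did not pass the test. CDC25C, a phosphatase that activates CDK1, gave 505 and 555 with siRNA 1, 544 and 468 with siRNA 2, and 594 and 613 with scramble, again with no overlap between knockdown and scramble arrays. Its log2 changes were -0.19 and -0.26 with siRNA 1 and siRNA 2 (limma adjusted p = 0.483 and 0.289).

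CDK1 itself, the kinase at the centre of mitotic entry, gave 15017 and 14750.0 with siRNA 1, 14071 and 14740.4 with siRNA 2, and 16168 and 15294 with scramble. The groups did not overlap, but the log2 changes were small, at -0.08 (95% interval -0.29 to 0.13) and -0.13 (-0.34 to 0.08). PLK1, a kinase that acts from mitotic entry through cytokinesis, gave 677 and 814 with siRNA 1, 610.4 and 639.6 with siRNA 2, and 689 and 621 with scramble. Its siRNA 1 arrays lay on either side of the higher scramble array, and the log2 change was 0.18 with siRNA 1 and -0.07 with siRNA 2. The cyclins CCNA2, CCNB1 and CCNB2 changed by log2 values of -0.01 to 0.01 with siRNA 1 and of -0.13 to -0.06 with siRNA 2, none of which passed the test. Among the members' dimmer probe sets above the filter level, however, the lowest log2 changes were of CCNB2, at -0.71 with siRNA 1 and -0.68 with siRNA 2. On the brightest probe set of each of the 3 cyclins both siRNA 2 arrays were below both scramble arrays, as for 24.0% of all tested genes. The siRNA 1 arrays overlapped with scramble. CDC25B stood at log2 changes of 0.09 and -0.13.

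FOXM1, a transcription factor of G2 and M phase genes, gave 1461 and 1913 with siRNA 1, 1837 and 2048 with siRNA 2, and 1751 and 1639.6 with scramble. Both siRNA 2 arrays were above scramble and the siRNA 1 arrays were one below and one above, with log2 changes of -0.02 and 0.20 (limma adjusted p = 0.965 and 0.547). GTSE1, a microtubule-associated protein expressed in G2 and S phase, gave 2126 and 2287 with siRNA 1, 2825 and 2411 with siRNA 2, and 2236 and 2137 with scramble. It was highest on the siRNA 2 arrays, but neither its change with siRNA 2 (log2 change 0.26, adjusted p = 0.290) nor the difference between the siRNAs (-0.24, adjusted p = 0.335) passed the test. With the mean of its probe sets the log2 change of GTSE1 with siRNA 2 was -0.13 (adjusted p = 0.729).

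TOP2A, the topoisomerase that untangles sister chromatids, gave 6131 and 6061 with siRNA 1, 6408 and 6561 with siRNA 2, and 6909 and 6133 with scramble. The scramble duplicates were further apart than the groups, and the log2 changes were -0.09 and -0.01. MKI67, which encodes the proliferation antigen Ki-67 that coats mitotic chromosomes, gave 2229 and 2775 with siRNA 1, 1969 and 2242 with siRNA 2, and 2223 and 2208 with scramble. A single array, siRNA 1 B, stood above the others, and the log2 changes were 0.17 (95% interval -0.20 to 0.53) and -0.08 (-0.44 to 0.29). Both intervals of this proliferation marker thus lay inside 1.5-fold, but they measure only the spread between these technical duplicates. With 1 array left out, its log2 change lay between 0.01 and 0.32 with siRNA 1 and between -0.17 and 0.02 with siRNA 2.

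The chromosomal passenger complex corrects faulty kinetochore attachments and later acts in cytokinesis. AURKB, its kinase, gave 2118 and 1775 with siRNA 1, 2182 and 2278 with siRNA 2, and 2281 and 2314 with scramble. All knockdown arrays were below scramble, though 2278 and 2281 nearly met, and the log2 changes were -0.24 and -0.04 (limma adjusted p = 0.376 and 0.865). BIRC5, which encodes the passenger subunit survivin, gave 3269.5 and 3140.2 with siRNA 1, 4026 and 3784 with siRNA 2, and 3843 and 3507 with scramble. It was lower on the siRNA 1 arrays than on all others. On the brightest probe sets BIRC5 was the 1 member with an unadjusted p under 0.05 between the siRNAs (log2 difference -0.28). It did not pass the test (limma, adjusted p = 0.213). Under other settings its log2 change lay between -0.20 and -0.08 with siRNA 1 and between -0.01 and 0.11 with siRNA 2.

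Kinetochores link chromosomes to spindle microtubules. NDC80, the main microtubule-binding subunit of the outer kinetochore, gave 3484 and 3416 with siRNA 1, 3773 and 3671 with siRNA 2, and 3152 and 3051 with scramble. The 3 pairs of arrays did not overlap. The log2 change was 0.15 with siRNA 1 (limma, adjusted p = 0.409) and 0.26 with siRNA 2 (adjusted p = 0.158), which did not pass the test. CENPA, the histone variant that marks centromeres, gave 756 and 597 with siRNA 1, 738 and 706 with siRNA 2, and 531 and 751 with scramble. Its scramble duplicates differed by more than any other member's duplicates, by 0.50 on the log2 scale, and its log2 changes of 0.09 and 0.19 have the widest intervals (-0.46 to 0.64 and -0.36 to 0.74). NUF2, the partner of NDC80, stood at -0.14 and -0.01, CENPE, a kinetochore motor, at 0.00 and -0.05, and CENPF, a kinetochore protein that accumulates in G2, at 0.14 and -0.04. The partners NDC80 and NUF2 therefore had estimates of opposite sign with siRNA 1, while NUF2 hardly differed from scramble with siRNA 2. Neither gene passed the test.

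The spindle assembly checkpoint delays anaphase until all kinetochores are attached. BUB1, a checkpoint kinase, gave 2573 and 2498 with siRNA 1, 2448 and 2582 with siRNA 2, and 2396 and 2006 with scramble. Every knockdown array was above scramble, and the log2 changes of 0.21 and 0.20 did not pass the test (limma adjusted p = 0.450 and 0.404). With the mean of its probe sets in place of the brightest, the others being below the filter level, the log2 changes of BUB1 were -0.21 and -0.64 (adjusted p = 0.903 and 0.625). MAD2L1, which encodes the checkpoint protein MAD2 that inhibits CDC20, gave 4287 and 3340.0 with siRNA 1, 3442 and 3179 with siRNA 2, and 4293 and 4275 with scramble. Both siRNA 2 arrays were below scramble, while siRNA 1 array A lay between the scramble arrays and array B below them. Its log2 change was -0.37 with siRNA 2 (95% interval -0.75 to 0.00, limma adjusted p = 0.241) and -0.18 with siRNA 1 (adjusted p = 0.598). The other checkpoint genes stood at 0.16 and 0.09 (BUB1B), 0.00 and -0.22 (BUB3) and 0.03 and 0.06 (TTK, which encodes the kinase MPS1).

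The 8 genes of spindle assembly and its motors had median log2 changes of 0.02 and -0.01, with none called. KIF4A, a chromosome-bound kinesin that shapes the central spindle, gave 1844 and 1988 with siRNA 1, 1884 and 2067 with siRNA 2, and 1553 and 1533 with scramble. All 4 knockdown arrays were above both scramble arrays, by log2 changes of 0.31 with siRNA 1 (95% interval 0.07 to 0.55, limma adjusted p = 0.229) and 0.35 with siRNA 2 (0.11 to 0.59, adjusted p = 0.137). It had the lowest p of all members in both comparisons and did not pass the test in either. With a variance that limma lets depend on intensity (an intensity trend), the adjusted p with siRNA 2 was 0.0332, at a change that stayed under 1.5-fold. DLGAP5, a spindle-stabilising protein, gave 4175 and 3932 with siRNA 1, 4199.6 and 4108 with siRNA 2, and 4609 and 4236 with scramble, below scramble on all knockdown arrays by log2 changes of -0.13 and -0.09. The remaining 6 were TPX2, the activator of AURKA, NUSAP1, HMMR, CKAP2 and the motors KIF11 and KIF2C, whose log2 changes lay between -0.06 and 0.09 for siRNA 1 and between -0.04 and 0.05 for siRNA 2.

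Anaphase follows when the anaphase-promoting complex (APC/C) marks securin and cyclin B for destruction. CDC20, its mitotic activator, gave 7454 and 8213 with siRNA 1, 7069 and 7423 with siRNA 2, and 7669 and 6989.7 with scramble. UBE2C, its ubiquitin-conjugating enzyme, gave 9453 and 9203 with siRNA 1, 8796 and 9294 with siRNA 2, and 8828 and 9499 with scramble. Both overlapped with scramble, at log2 changes of 0.10 and -0.02 for CDC20 and of 0.03 and -0.02 for UBE2C. PTTG1, which encodes securin, the inhibitor of separase, gave 16705 and 15770.5 with siRNA 1, 15611 and 16922 with siRNA 2, and 18782 and 17451 with scramble. It was below scramble on all 4 knockdown arrays with log2 changes of -0.16 and -0.16, which did not pass the test (limma adjusted p = 0.481 and 0.417).

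Cytokinesis separates the daughter cells after the central spindle has formed. KIF20A, a kinesin of the central spindle, gave 3875 and 4148 with siRNA 1, 2641 and 3556 with siRNA 2, and 3694 and 3539 with scramble. On the brightest probe sets KIF20A had the largest difference between the siRNAs among the members (log2 difference 0.39, 95% interval -0.04 to 0.81, limma adjusted p = 0.301). Its siRNA 2 array A alone stood well below the other arrays. KIF23, a motor subunit of centralspindlin, gave 1289.8 and 1444 with siRNA 1, 1707 and 1544 with siRNA 2, and 1559 and 1269.8 with scramble, with its scramble arrays at both ends of the siRNA 1 values. Under other settings the log2 change of KIF23 lay between -0.04 and 0.26 with siRNA 1 and between -0.06 and 0.23 with siRNA 2. ECT2, the exchange factor that activates RhoA at the cleavage furrow, gave 4109.7 and 3912 with siRNA 1, 3728 and 3909 with siRNA 2, and 4534 and 4148 with scramble. ANLN, an actin-binding scaffold of the contractile ring, gave 7118 and 6658 with siRNA 1, 7490.1 and 7048 with siRNA 2, and 8054 and 7631 with scramble. Both were below scramble on all knockdown arrays, at log2 changes of -0.11 and -0.18 for ECT2 and of -0.19 and -0.11 for ANLN, and neither passed the test. PRC1, the microtubule bundler of the central spindle, stood at 0.00 and -0.03.

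Between the 2 siRNAs, limma called 0 of 40 members, against 0.212% of all tested genes. Both siRNA 1 arrays were above both siRNA 2 arrays for 13 members (32.5%, against 24.2% of all tested genes) and below them for 7 (17.5%, against 26.5%). On the brightest probe sets all 40 estimates were inside 1.5-fold, as were 90.0% of all. This did not hold with _at probe sets alone, where 28 members remained and the highest log2 difference was 0.99. The 1 member past an unadjusted p of 0.05 was lower (BIRC5, 2.5%, against 9.53%), and 0 were higher (against 9.16%). In mitotic entry 7 of 8 genes had a higher estimate with siRNA 1 (against 48.8% of all tested genes), with a median log2 difference of 0.10. On the brightest probe sets the members with the lowest differences were BIRC5 (-0.28), KIF23 (-0.25) and GTSE1 (-0.24). Those with the highest were KIF20A (0.39), PLK1 (0.25) and MKI67 (0.24). These extremes depended on the probe set. With the mean of probe sets the members' differences lay between -0.21 and 0.43, and with _at probe sets alone the lowest was -0.20. The difference had a 95% interval inside 1.5-fold for 35 members (87.5%, against 53.9% of all tested genes), and FOXM1, MKI67, CENPA, KIF20A and KIF23 were the exceptions.

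Many members are measured by more than one probe set, and the others were compared with the brightest. The members had 86 probe sets, of which 46 were not the brightest and 36 of those, from 21 members, were above the filter level. When 23975 probe sets were fitted singly, a check added after the data were seen, limma called 0 of all of them with siRNA 1 and 1 with siRNA 2, so calls say nothing about the 36. Estimates inside 1.5-fold were found for 35 of the 36 with siRNA 1 (97.2%, against 89.5% of all probe sets fitted singly) and for 34 with siRNA 2 (94.4%, against 87.5%). Estimates above 0 were found for 9 with siRNA 1 (25%, against 49.7%) and for 11 with siRNA 2 (30.6%, against 48.6%), so most of these probe sets read lower than scramble. Without adjustment, 2 were higher at a p under 0.05 with siRNA 1 (5.56%, against 7.40%) and 0 were lower (against 6.30%). With siRNA 2 these were 2 higher (5.56%, against 9.17%) and 6 lower (16.7%, against 8.87%), so the share lower was over the background there. Because the 36 came from 21 members, probe sets of the same gene were counted separately in these shares and are not independent. Their median log2 changes were -0.08 and -0.08, and 22 and 20 of them had the same sign as the brightest probe set. The 3 probe sets of MAD2L1 stood at -0.37, -0.48 and -0.36 with siRNA 2, and at -0.18, -0.02 and 0.08 with siRNA 1. All 3 had estimates below 0 with siRNA 2. The 4 probe sets of CDK1 stood at -0.13, -0.27, -0.12 and -0.42 with siRNA 2. For BUB3, in contrast, they lay between 0.00 and 0.37 for siRNA 1 and between -0.63 and 0.29 for siRNA 2, so with siRNA 2 its direction depended on the probe set. KIF4A and NDC80 had 1 probe set each. The brightest probe set was of a type that can also bind related transcripts for 19 of the 40 genes, against 35.8% of all tested genes.

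**Figure D4:**
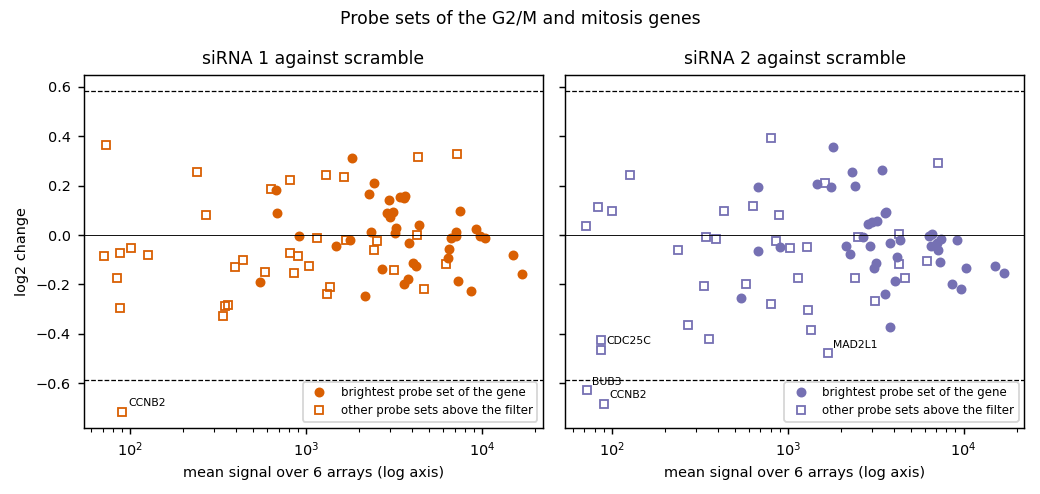
The log2 change of every probe set of the G2/M and mitosis genes that was above the filter level, against its mean signal over the 6 arrays (log axis), with siRNA 1 on the left and siRNA 2 on the right. Filled circles are the brightest probe set of a gene, open squares its others, and dashed lines mark 1.5-fold. The points outside the dashed lines are dim probe sets of CCNB2 in both panels and of BUB3 with siRNA 2.

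Genes that surround the members in the same pathways were counted from lists, again with limma calls over all tested genes. In the list of 11 genes of the Greatwall and PP2A-B55 switch, PPP2R2A was lower with both siRNAs and PPP2R1B, a scaffold subunit of PP2A, was called higher with siRNA 2. PPP2R1B gave 1623 and 1336 with siRNA 1, 2034 and 1960.3 with siRNA 2, and 834 and 843 with scramble. All 4 knockdown arrays were above scramble, with a log2 change of 1.25 with siRNA 2 (adjusted p = 0.0461) and of 0.81 with siRNA 1 (adjusted p = 0.0807). The call with siRNA 2 was lost without any 1 of the 6 arrays (adjusted p from 0.124 to 0.196), and on another probe set of this gene the log2 change was -0.21. The inhibitory arm itself was not called, with MASTL at 0.08 and 0.16, ENSA at -0.09 and -0.14 and ARPP19 at 0.04 and 0.06.

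Of 17 APC/C subunits and regulators, 16 were tested and CDC23 was the 1 that was called. CDC23, a scaffold subunit of the complex, gave 1193 and 1134 with siRNA 1, 2817 and 2810.3 with siRNA 2, and 2820.5 and 2576 with scramble. It was low on both siRNA 1 arrays and at the scramble level on both siRNA 2 arrays. It fell by a log2 change of -1.21 with siRNA 1 (adjusted p = 0.0430) and stood at 0.06 with siRNA 2, and the difference between the siRNAs was also called (log2 difference -1.27, adjusted p = 0.0467). Without any 1 array neither was called, with adjusted p from 0.139 to 0.216 for the change with siRNA 1. A second, dimmer probe set of CDC23 stood at -0.03 with siRNA 1 and 0.45 with siRNA 2. CDC27, another APC/C subunit, was chosen here after its values were seen, and it gave 2007 and 2571 with siRNA 1, 1299.8 and 1221 with siRNA 2, and 2712 and 2447 with scramble. Its log2 change was -1.03 with siRNA 2 (adjusted p = 0.0637) and -0.18 with siRNA 1, and it was not called, although a stricter filter, the 60th percentile on at least 4 arrays (adjusted p = 0.0185) and the intensity trend called it with siRNA 2.

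Other lists held no called gene in either comparison with scramble. In 12 genes of the DREAM, MuvB and B-MYB complexes, which bind CHR elements or act beside them, the median log2 changes were -0.11 and -0.09. E2F5, a repressor E2F, gave 235 and 179 with siRNA 1, 307 and 326 with siRNA 2, and 127 and 136 with scramble, and at 1.26 with siRNA 2 it did not pass the test (adjusted p = 0.0556). RBBP4, a MuvB subunit, stood at -0.44 and -0.17. In 16 genes of condensin and cohesin the medians were 0.03 and 0.06, and the cohesin subunits STAG2 and STAG1 stood at 0.72 and 0.29 and at 0.09 and 0.41. With the stricter filter limma called E2F5 with siRNA 2 (adjusted p = 0.0145) and STAG2 with siRNA 1 (adjusted p = 0.0186). These lists thus contained larger estimates than any of the 40 mitotic genes, but the genes named from them were chosen for the size of their change. Of all tested genes, 90.8% lay inside 1.5-fold with siRNA 1 and 89.1% with siRNA 2. E2F5 was also dimmer on every array than the members' median signal, and the part of brightness was not tested.

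Of 40 other mitotic genes 39 were tested, with medians of -0.05 and -0.03 and 15 of 39 above 0 with each siRNA. The largest mean changes in that list were those of WEE1 and ARHGAP11A. WEE1, the kinase that restrains CDK1, gave 4782 and 4208 with siRNA 1, 2706 and 2411 with siRNA 2, and 4590.2 and 4633 with scramble. It was low on the siRNA 2 arrays alone, at a log2 change of -0.85 (adjusted p = 0.0567), against -0.04 with siRNA 1, and the difference between the siRNAs did not pass the test (0.81, adjusted p = 0.0794). Under the stricter filter both passed, with adjusted p = 0.0160 and 0.0240. ARHGAP11A, a regulator of RhoA, stood at -0.46 and -0.62.

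In G1/S and DNA replication genes, of which 29 of 30 were tested, the medians were -0.05 and 0.01, and the largest mean changes were those of the transcription factor E2F2, at 0.65 and 0.23, and of the replication factor MCM10, at -0.34 and -0.30. E2F2 was called with siRNA 1 under the stricter filter (adjusted p = 0.0338). Cyclin-dependent kinase inhibitors arrest the cycle. Of 7 such genes 4 were tested, and the 2 with the largest mean change were CDKN1A, which encodes p21, and CDKN1B, which encodes p27. CDKN1A gave 3725 and 3659 with siRNA 1, 3886 and 4299.7 with siRNA 2, and 2825 and 2992 with scramble. CDKN1B gave 3202 and 2704 with siRNA 1, 3064 and 3109 with siRNA 2, and 2236 and 2169 with scramble. For both, all 4 knockdown arrays were above scramble, as they were for 14.7% of all tested genes. The log2 changes were 0.34 and 0.49 for CDKN1A (adjusted p = 0.201 and 0.0846) and 0.42 and 0.49 for CDKN1B (adjusted p = 0.196 and 0.111). None of these changes passed the test. Among the 4 tested inhibitors the extremes for siRNA 1 were -0.11 and 0.64, both in genes not named here. For siRNA 2 the extremes were 0.05 and 0.49.

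**Figure D5:**
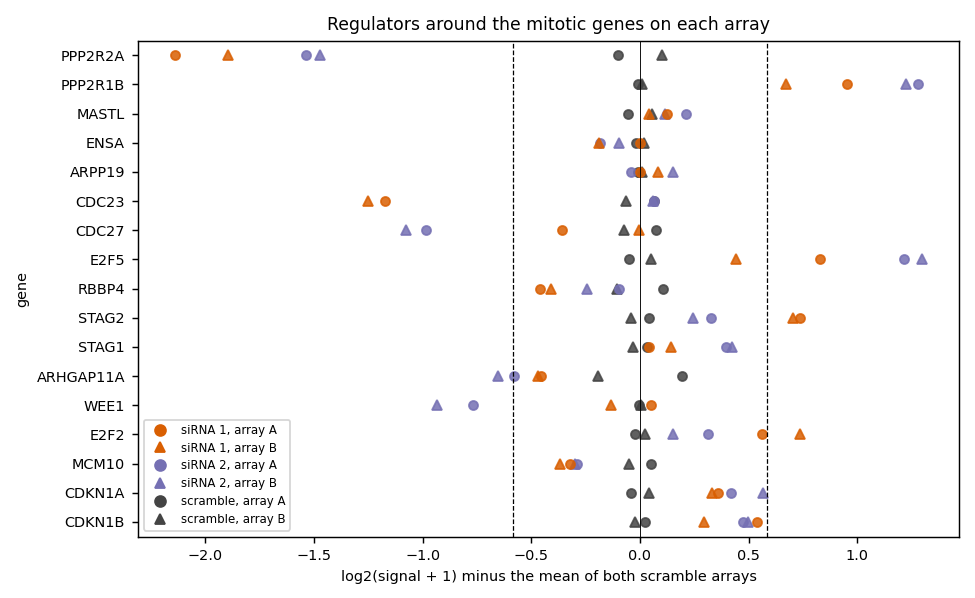
The log2 signal on every array of PPP2R2A and of 16 other genes from lists around the mitotic genes, given as the difference from the mean of both scramble arrays. Colours show siRNA 1, siRNA 2 and scramble, circles array A and triangles array B, and dashed lines mark 1.5-fold. PPP2R2A lies far to the left with both siRNAs, CDC23 is to the left with siRNA 1 alone, and WEE1 and CDC27 are beyond the left dashed line with siRNA 2 alone.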

How the data were processed

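Per the submitters' processing notes, the deposited intensity values, linear signal per probe set, came from Affymetrix Expression Console, for which the sources used here give no version or settings. Each array's trimmed mean signal (2% off either tail) was 500.067 to 500.07. Per the labels' protocols, RNA was isolated with TRIzol and RNeasy columns and labelled with the MessageAmp Premier kit. Of 54675 probe sets, 41097 carried 1 gene symbol in the platform table. Values were used on the scale log2(signal + 1), and no other normalization was applied. Each gene was represented by the probe set with the highest mean log2 value over the 6 arrays, and tested where 2 or more arrays had it above their 50th percentile. Arrays were grouped by their titles, of which 1 spells the gene differently and was assigned by its siRNA number.

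Groups were compared with limma 3.58.1 in R 4.3.3 (lmFit with a coefficient per group, eBayes, Benjamini-Hochberg over all 12735 tested genes, 3 residual degrees of freedom), and calls required an adjusted p below 0.05 with at least 1.5-fold. Intervals of 95% are from limma's moderated standard errors. The fit was tested on simulated data. Correlations of the deviations of same-letter arrays were -0.03 to 0.04, so the letters were not treated as pairs. Promoter windows and letters were taken from RefSeq, GRCh38.p14. Plots used matplotlib 3.10.9 (Python 3.11.15).

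Members and gene lists were chosen with earlier results of these data known. Every array's signal is given for members whose 4 knockdown arrays lay on 1 side of scramble, for the 2 in each role group with the largest mean change over both siRNAs (all in groups of 2 or 3), and for the 3 with the largest difference between the siRNAs in each direction. Of other lists, called genes or else up to 2 with the largest mean change are named. MASTL, ENSA, ARPP19 and further genes named by range were chosen apart from this rule. The alternatives run were quantile normalization, centring, another pseudocount, other filters and probe set choices, an intensity trend, a replicate block and each array left out.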

Additional observations from a re-analysis of the deposited data

Results flagged for a closer look

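CDC23, a scaffold subunit of the anaphase-promoting complex, was set apart because the siRNAs differed by a test of the difference itself. Its log2 difference, siRNA 1 minus siRNA 2, was -1.27 (limma, adjusted p = 0.0467), with 1193 and 1134 on the siRNA 1 arrays and 2817 and 2810.3 on the siRNA 2 arrays. With any 1 of the 6 arrays left out the difference lay between -1.31 and -1.24 and the adjusted p between 0.144 and 0.215, so the call was lost each time. On the dimmer probe set of this gene the difference was -0.48. None of the 40 mitotic genes differed between the siRNAs by this test.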

How the results depend on the processing

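The count of mitotic genes called was 0 in all 4 comparisons under each of the 15 other settings, while that of all tested genes moved widely. With siRNA 1 it was 50 as reported, 33 after quantile normalization, 11 after centring on array medians, 65 with a pseudocount of 16, 0 with no filter, 268 with a stricter filter, 0 with the mean of probe sets, 11 with _at probe sets alone, 299 with an intensity trend and 0 with a replicate block. With siRNA 2 the counts were, in the same order, 76, 71, 1, 162, 0, 405, 0, 0, 472 and 0. For the mean of both siRNAs they were 65, 72, 9, 102, 0, 255, 1, 16, 278 and 0, and between the siRNAs 27, 12, 0, 30, 0, 311, 0, 5, 362 and 0. Leaving out any 1 array gave 0 in all 4 comparisons. A count of 0 members under a setting that calls no gene at all says nothing about stability. The 2 settings that called most, the stricter filter and the intensity trend, also left 0 members called, with a lowest adjusted p of 0.0290 (KIF4A with the mean of both siRNAs, under 1.5-fold). The members' median log2 change with siRNA 2, reported as -0.038, lay between -0.078 and 0.0094 when 1 array was left out, and without siRNA 2 array A it was above 0. The letters A and B did not pair the arrays, and with the replicate block the members' lowest adjusted p was 0.289 with siRNA 1 and 0.189 with siRNA 2. The calls of PPP2R2A, of CDC23 and of PPP2R1B were lost with no filter, with the mean of probe sets, with the replicate block and without any 1 array, and the log2 change of CDC23 with siRNA 1 was -0.62 with the mean of probe sets. With centring and with _at probe sets alone, PPP2R2A with siRNA 1 kept its call and the other calls of these 3 genes against scramble were lost. PPP2R2A stayed at or below -1.09 in each setting run. Of 1206 values of the named genes under other settings, 1 called value changed sign, PPP2R1B with siRNA 2, which stood at -0.13 with _at probe sets alone, and 44 uncalled values did. The cause was not tested. With _at probe sets alone 28 members remained, and the mean of probe sets gave BUB1 log2 changes of -0.21 with siRNA 1 and -0.64 with siRNA 2 through dim probe sets. Signal over background limits the dim probe sets, and 2 technical duplicates limit every test.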
